A study of Rattus norvegicus and Ovis aries with 113 samples.

Results

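Vomeronasal type 2 receptors (V2Rs) are G protein-coupled receptors of the family C type, encoded in the rat by the Vom2r genes. They are known as pheromone receptors of the vomeronasal organ, where basal sensory neurons each use very few of them, signal through the G protein subunit Gnao1 and open the cation channel Trpc2. A long extracellular amino-terminal domain binds peptides and proteins, and the genes lie in clusters that hold many pseudogenes. The genes were taken by name: every gene of the rat count tables whose symbol starts with Vom2r, which gave 78 of 38675 genes. All 78 are annotated as protein coding in GRCr8, and 45 of them lie on chromosome 1. The family was chosen by name and selected on 1 measured contrast, the levels of Vom2r4 and Vom2r6 in ovary against brain, so all values of that contrast below are a description with no test.

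The study sequenced mRNA of nervous and reproductive samples to look for genes that bridge both systems. The rat samples were 14 ovary and 14 whole-brain libraries from female Sprague Dawley rats, and 15 sperm and 15 whole-brain libraries from post-pubertal male Sprague Dawley rats. No rat was treated, and the age of the females is not given in the sources used here. The sperm libraries were made from seminal fluid taken from the killed males, so they can hold RNA of cells other than sperm. Libraries are named here by the rat number in their labels. Whole brain and ovary are mixtures, in which fewer cells of a type and less RNA per cell cannot be told apart.

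Library totals were 50.5 to 60.3 M counts (1 M is 1000000) in ovary, 13.7 to 65.1 M in sperm, 45.2 to 119 M in female brain and 38.2 to 102 M in male brain. The sperm libraries of rats 16 and 17 had totals of 26.5 M and 13.7 M. Few genes had 1 to 3 counts in them, 320 and 300, and in the sperm library of rat 7, with 441. The other sperm libraries had 2545 to 4692 such genes. In the brain libraries of rats 1 and 4, 3 ribosomal RNA entries held 86.9% and 83.1% of the counts. The 8 ovary markers summed to 1692 to 3729 counts per 1000000 (CPM) in ovary and 7.05 to 14.1 CPM in female brain. The 6 spermatid and sperm markers summed to 201 to 19906 CPM across sperm libraries, and the 5 epididymis and vas deferens markers to 2738 to 35679 CPM in the same libraries. Levels below are CPM scaled over all 58 libraries by trimmed means of M values (TMM). They are not divided by gene length, so they compare 1 gene between samples and not genes with each other.

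The sequences shown are the starts of some members counted mainly in ovary or in sperm. The window of Vom2r66, a brain member, was compared but is not shown. Each is the RefSeq window of 300 bases, 250 before to 50 after the annotated transcript start, in GRCr8, written 5′ to 3′ on the strand of the gene. RefSeq windows were matched for 73 of the 78 genes, and those of Vom2r44, Vom2r24, Vom2r34, Vom2r42 and Vom2r19 are not shown or compared. The first pair are neighbours on chromosome 7 that were counted in sperm, Vom2r57 (chr7:18104731-18105030, minus strand) and Vom2r56 (chr7:18008738-18009037, minus strand), with capitals at the 5 bases where they differ.
Vom2r57: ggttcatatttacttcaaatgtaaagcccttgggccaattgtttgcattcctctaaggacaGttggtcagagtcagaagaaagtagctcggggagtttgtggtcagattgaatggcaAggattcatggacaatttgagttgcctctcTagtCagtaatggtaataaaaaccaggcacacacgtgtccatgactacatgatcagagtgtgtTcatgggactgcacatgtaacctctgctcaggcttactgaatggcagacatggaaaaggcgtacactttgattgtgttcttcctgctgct
Vom2r56: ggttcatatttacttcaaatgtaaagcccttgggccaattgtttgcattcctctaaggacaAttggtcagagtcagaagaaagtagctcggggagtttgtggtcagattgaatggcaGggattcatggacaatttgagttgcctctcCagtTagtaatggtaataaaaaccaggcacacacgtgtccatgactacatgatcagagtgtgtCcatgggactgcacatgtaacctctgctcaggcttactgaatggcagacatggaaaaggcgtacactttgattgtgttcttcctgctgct

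The second pair are the members at a mean of 1 CPM or more in ovary that had 0 counts in brain, Vom2r6 (chr1:3025673-3025972, plus strand) and Vom2r4 (chr1:2889517-2889816, minus strand), with capitals at the 13 bases where they differ.
Vom2r6: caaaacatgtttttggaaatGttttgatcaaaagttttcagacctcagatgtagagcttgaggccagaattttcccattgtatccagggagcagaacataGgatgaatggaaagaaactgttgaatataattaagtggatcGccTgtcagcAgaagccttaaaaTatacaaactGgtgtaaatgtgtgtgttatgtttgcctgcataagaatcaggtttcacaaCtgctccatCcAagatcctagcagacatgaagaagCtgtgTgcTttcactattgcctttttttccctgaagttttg
Vom2r4: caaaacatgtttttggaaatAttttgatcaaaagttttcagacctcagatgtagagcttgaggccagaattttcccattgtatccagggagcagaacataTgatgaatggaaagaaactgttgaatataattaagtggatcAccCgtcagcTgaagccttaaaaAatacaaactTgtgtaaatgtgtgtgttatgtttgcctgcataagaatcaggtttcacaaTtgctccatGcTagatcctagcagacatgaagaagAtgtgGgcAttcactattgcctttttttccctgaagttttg

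The remaining windows belong to members without a close relative at the start, Vom2r75 of sperm (chr18:114147-114446, minus strand) and Vom2r53 of ovary (chr7:10917734-10918033, plus strand), printed with no capitals.
Vom2r75: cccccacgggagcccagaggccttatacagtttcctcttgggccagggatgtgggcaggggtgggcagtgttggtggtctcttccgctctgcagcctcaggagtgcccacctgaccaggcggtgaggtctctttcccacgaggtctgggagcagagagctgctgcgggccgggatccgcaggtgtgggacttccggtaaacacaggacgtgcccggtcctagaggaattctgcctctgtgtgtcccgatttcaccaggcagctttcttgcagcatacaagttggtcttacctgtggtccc
Vom2r53: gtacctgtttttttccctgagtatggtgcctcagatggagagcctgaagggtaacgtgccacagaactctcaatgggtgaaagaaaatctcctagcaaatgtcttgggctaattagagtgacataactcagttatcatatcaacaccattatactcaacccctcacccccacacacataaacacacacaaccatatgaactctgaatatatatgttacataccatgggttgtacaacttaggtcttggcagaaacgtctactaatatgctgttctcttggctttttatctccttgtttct

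The windows of Vom2r57 and Vom2r56 were 98.3% identical by edit distance, and those of Vom2r6 and Vom2r4 95.7%. Vom2r75 reached at most 46.7% with any other member and Vom2r53 at most 60.7%. Over all 2628 pairs the median identity was 49.0%, and 28 pairs reached 90%, which took in 22 of the 73 genes. Vom2r75 had 61.3% G and C, the highest of the 73 windows, against a median of 38.3% over members and 52.3% over all promoter windows in the table. The annotated transcript start of Vom2r53 lies 5972 bases inside the gene span and that of Vom2r56 lies 8688 bases inside, so these windows need not be the outermost start. The TATA box core TATAAA, searched on both strands, was in 22 of 73 member windows (30.1%) and in 14.3% of 27457 windows of all genes. Neither it, the cyclic AMP response element TGACGTCA (1.91% of all windows) nor the nuclear receptor motif AAGGTCA (4.37% of all windows) was in any of the 6 windows shown, and the latter motifs were in 0 of the 73 member windows.

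Few members were counted at an appreciable level in any tissue. A mean of 1 CPM or more was reached by 4 genes in ovary, 3 in sperm, 2 in female brain and 2 in male brain. These are 5.13%, 3.85%, 2.56% and 2.56% of the family, where 39.8%, 42.5%, 41.4% and 41.7% of all genes reached that mean. In all, 7 members reached it in at least 1 group: Vom2r53, Vom2r6 and Vom2r4 in ovary, Vom2r57 and Vom2r75 in sperm, Vom2r66 in brain and Vom2r44 in every group. The other 71 never did. Of the 78, 14 had 0 counts in all 58 libraries and 40 had 10 counts or fewer in all of them together. The family as a whole held 44923 counts.

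**Figure D1:**
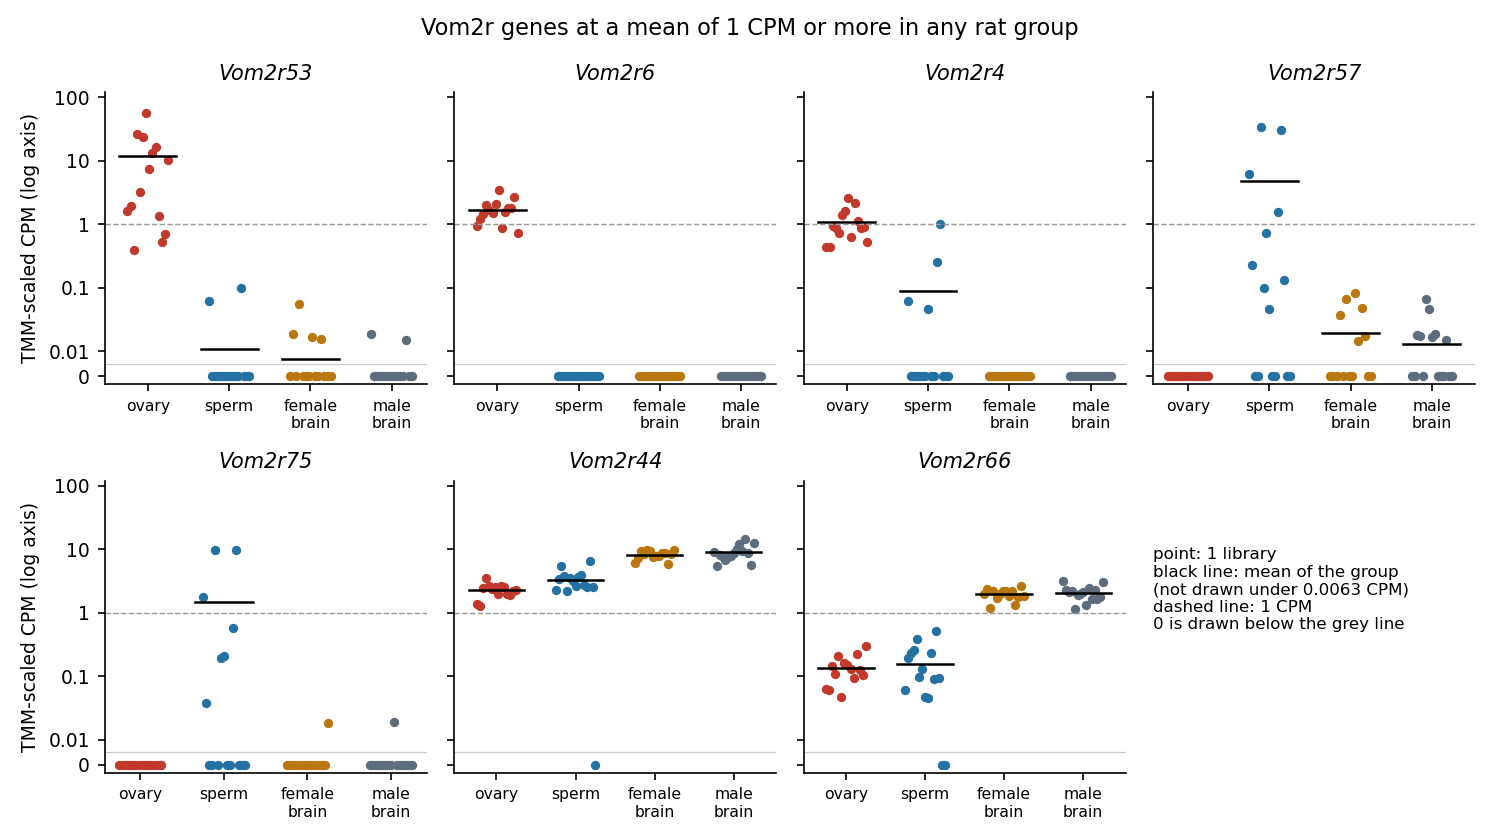
Level of 7 Vom2r genes in each of 58 rat libraries, in TMM-scaled CPM on a log axis, by tissue and sex (point, 1 library; black line, group mean; dashed line, 1 CPM). Vom2r53, Vom2r6 and Vom2r4 sit high in ovary, Vom2r57 and Vom2r75 in a few sperm libraries, Vom2r66 in brain, and Vom2r44 lies above 1 CPM in all libraries but 1 of sperm.

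A single gene held most of the family's counts in ovary and in brain. In ovary, Vom2r53 held 66.0% of the 16316 counts of the family. In female brain, Vom2r44 held 72.6% of 8894 counts, and in sperm Vom2r57 held 48.6% of 9115 counts. No member lay just below the threshold in ovary. The lowest ovary means above it were 1.08 CPM for Vom2r4, 1.68 for Vom2r6 and 2.25 for Vom2r44, and the highest below it were 0.165 CPM for Vom2r80, 0.136 for Vom2r66 and 0.111 for Vom2r76. Only 20 of the 78 genes had a mean of 0.05 CPM or more in any group.

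**Figure D2:**
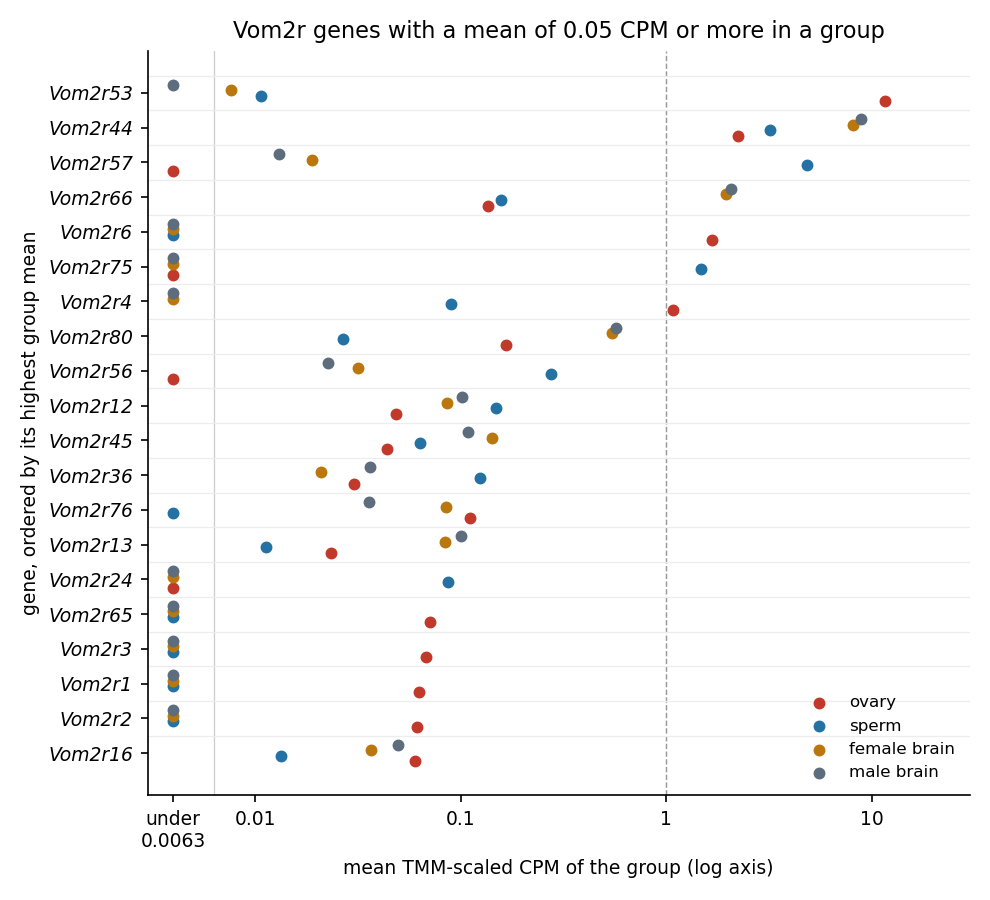
Mean TMM-scaled CPM (log axis) of the 20 Vom2r genes with a mean of 0.05 CPM or more in at least 1 of the 4 groups, each point a group mean (n = 14 ovary, 15 sperm, 14 female brain, 15 male brain; dashed line, 1 CPM). Of these genes, 7 pass 1 CPM, and the remaining ones lie at 0.567 CPM or lower.

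Vom2r53 was the member with the widest range among ovaries. Its level was 0.386 CPM in the lowest ovary library, 5.30 CPM at the median and 55.2 CPM in the highest, a mean of 11.6 ± 15.3 CPM (SD, n = 14) resting on 24 to 3812 counts per library. It was counted in all 14 ovaries, and 11 of them were at 1 CPM or more. The highest were the ovaries of rats 22, 19, 21 and 25, at 55.2, 26.5, 23.9 and 16.2 CPM, and the lowest those of rats 18 and 27, at 0.386 and 0.518 CPM. Outside the ovary it had 10 counts over 15 sperm libraries, 6 over 14 female brains and 2 over 15 male brains. The highest library outside the ovary was a sperm library at 0.0986 CPM, so ovary did not overlap with any other group. The fitted log2 fold change of ovary over female brain was 10.22 ± 1.00 (SE). Leaving out the ovary of rat 22 brought the ovary mean to 8.24 CPM.

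The nearest counted gene to Vom2r53 is Giot1, a zinc finger gene named for its induction by gonadotropins in the ovary. Vom2r53 lies on chromosome 7 from 10912012 to 10950649 on the plus strand, and Giot1 from 10868517 to 10886965 on the minus strand, 25046 bases away and with no overlap. Between them lies the pseudogene LOC103694900, 502 bases from Vom2r53, which has no row in the count tables. Giot1 was also highest in ovary, at 73.2 ± 40.01 CPM (SD, n = 14) with a range of 27.6 to 149 CPM, against 1.91 to 7.33 CPM in sperm and 3.16 to 5.91 CPM over both brain groups.

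Both genes rose and fell together from ovary to ovary. On the log2(CPM + 1) scale Pearson's r was 0.956 and Spearman's rho 0.965 over 14 ovaries. Both had a permutation p of 1e-05 (two-sided, the smallest that 100000 permutations can give) and an adjusted p of 9e-05 over the 9 relations of members and neighbours computed. Without the 2 ovaries farthest from the median of Giot1, r was 0.940. Among 15374 other genes at a mean of 1 CPM or more in ovary, Giot1 had the highest r with Vom2r53, followed by C18h18orf32 at 0.951. Counts of Vom2r53 were 1.40% to 37.1% of those of Giot1 in the same ovary, with a median of 8.15%, so the ratio was not fixed.

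**Figure D3:**
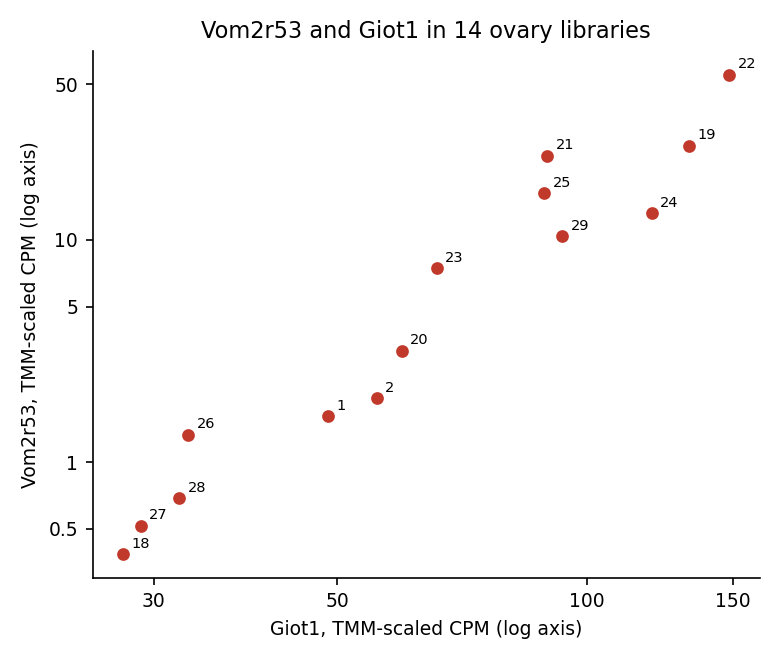
Vom2r53 against its neighbour Giot1 in the 14 ovary libraries, both in TMM-scaled CPM on log axes, each point 1 ovary with its rat number. Vom2r53 runs from 0.386 to 55.2 CPM while Giot1 runs from 27.6 to 149 CPM, and the order of the ovaries is nearly the same for both.

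Markers of ovarian cell types also differed between these ovaries. Cyp17a1, the androgen-forming enzyme of theca cells, ranged from 0.405 to 128 CPM. It was 0.405, 42.4, 0.414 and 1.42 CPM in rats 22, 19, 21 and 25, the highest for Vom2r53, and 25.3, 33.1 and 96.5 CPM in rats 28, 27 and 18, the lowest. Rats 24 and 29, next in the order of Vom2r53, had 55.7 and 77.5 CPM, so the orders were not simply reversed. In the same 4 highest and 3 lowest ovaries Fshr, the follicle-stimulating hormone receptor of granulosa cells, was 2.81, 8.25, 1.72 and 6.81 CPM, and 17.96, 6.95 and 13.2 CPM. Cyp19a1, the estrogen-forming enzyme, was 2.06, 20.5, 2.73 and 15.8 CPM, and 13.6, 5.96 and 25.01 CPM. Adipoq, the only fat marker listed, ranged from 6.00 to 490 CPM over the ovaries and was 86.3 CPM in rat 22. The part of these cell types in the level of Vom2r53 was not tested.

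Vom2r6 and Vom2r4 were counted in every ovary at a low level and in no brain library. Vom2r6 was 0.731 CPM in the lowest ovary, 1.59 at the median and 3.39 in the highest, with a mean of 1.68 ± 0.711 CPM (SD, n = 14). It reached 1 CPM in 11 of 14 ovaries. Vom2r4 was 0.430 CPM in the lowest ovary, 0.890 at the median and 2.61 in the highest, with a mean of 1.08 ± 0.649 CPM (SD, n = 14). It reached 1 CPM in 5 of 14 ovaries. Without the ovary of rat 23 its mean was 0.963 CPM, and without that of rat 25 it was 0.999 CPM. The ovary of rat 23 was the highest for both genes.

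In counts, Vom2r6 had 1556 over the 14 ovaries and 0 over the 14 female brains, at least 594-fold higher in ovary on plain library totals. Vom2r4 had 1000 against 0, at least 382-fold. These bounds set the brain at a floor of 3 counts over the group, 0.00338 CPM of the plain totals, and cover counting error only. They do not hold on the TMM scale, where bounds were not computed and would be lower. Plain totals of female brain include ribosomal RNA, up to 86.9% in rat 1. The ovary mean of Vom2r6 was 2.01 CPM on plain totals and 1.68 CPM on the TMM scale. Both also had 0 counts in the 15 male brains, and Vom2r6 had 0 in the 15 sperm libraries. Vom2r4 had 80 counts in sperm, of which 60 were in rat 14 and 14 in rat 13. The ovary thus did not overlap with brain for either gene.

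Neither Vom2r6 nor Vom2r4 overlaps an annotated gene. Vom2r6 lies on chromosome 1 from 3025923 to 3034593, with the pseudogene Atp13a3-ps1 8822 bases beyond it and the member Vom2r5 43524 bases before it. Vom2r4 lies from 2874499 to 2889566, with the noncoding gene LOC134484850 22482 bases before it and the pseudogene Vom2r-ps8 25565 bases beyond it. LOC134484850 had 0 counts in ovary, and Vom2r5 averaged 0.0153 CPM there, from 14 counts. With counts in 7 of 14 ovaries, Vom2r5 was too sparse to show whether it varied with either gene.

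The paired windows shown above belong to a set of 7 members whose starts are at least 90% identical to that of Vom2r6. They are Vom2r1, Vom2r3, Vom2r4, Vom2r5, Vom2r6 and Vom2r65, within positions 164376 to 3034593 of chromosome 1, and Vom2r67 on chromosome 14. All 7 had counts in ovary, as had 42 of all 78 members. Vom2r2, outside the set but within the same positions of chromosome 1, had 57 counts in ovary, in all 14 libraries, and 1 in brain. Besides Vom2r6 and Vom2r4, the set held 202 ovary counts. These were 65 for Vom2r65, 62 for Vom2r3, 58 for Vom2r1, 14 for Vom2r5 and 3 for Vom2r67. In both brain groups together Vom2r3 had 3 counts, Vom2r67 had 1 and the other 5 of the set had 0. How reads that fit several copies were counted is not given in the sources used here, so the split among these copies, and the levels of Vom2r6 and Vom2r4 themselves, are uncertain.

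Vom2r57 and Vom2r75 were the members of sperm, and a few libraries carried both. Vom2r57 was 0 CPM in the lowest sperm library, 0.0975 at the median and 33.3 in the highest, with a mean of 4.82 ± 11.0 CPM (SD, n = 15). Vom2r75 was 0 CPM in the lowest, 0 at the median and 9.68 in the highest, with a mean of 1.47 ± 3.35 CPM (SD, n = 15). The libraries of rats 7 and 14 held Vom2r57 at 33.3 and 30.1 CPM, from 2051 and 1830 counts. That of rat 7 is among the sperm libraries named above for few genes with low counts. Rat 3 followed at 6.14 CPM, rat 13 at 1.57 and rat 9 at 0.731 CPM, and 6 libraries had 0 counts. Only 4 of 15 libraries reached 1 CPM. Leaving out rat 7 alone brought the mean of Vom2r57 to 2.79 CPM and leaving out rat 14 alone to 3.02 CPM. Without rats 7 and 14 the means were 0.688 CPM for Vom2r57 and 0.212 CPM for Vom2r75.

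Neither gene had a count in any ovary, which allows at most 0.00387 CPM over the group. In brain Vom2r57 had 17 counts over the females and 11 over the males, and Vom2r75 had 1 in each. Sperm libraries with 0 counts overlap with these groups. In the 5 sperm libraries with at least 30 counts of Vom2r57, the counts of Vom2r75 were 26.5%, 28.3%, 28.9%, 32.2% and 36.8% of those of Vom2r57, although the genes lie on chromosomes 7 and 18. In libraries with fewer counts the ratio was not kept, as in rat 10, with 9 counts of Vom2r75 and 2 of Vom2r57, and rat 4, with 2 and 12. Vom2r56, the near copy of Vom2r57 at its start, had 132 counts in rat 14, 65 in rat 7, 26 in rat 3 and 19 in rat 13, and 250 over all sperm libraries. It was 3.17% to 21.8% of the Vom2r57 counts in those 4 libraries, so their counts did not keep 1 ratio.

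The 3 sperm libraries highest in Vom2r57 were also the 3 with the most spermatid RNA. The 6 spermatid and sperm genes summed to 19906 CPM in rat 14, 14849 CPM in rat 7 and 6073 CPM in rat 3, ranks 1 to 3 of 15. Tnp1, a transition protein that packs DNA in spermatids, was 4584, 2595 and 854 CPM in them, and 378 CPM in rat 13, rank 4. Below these the order of the sums parted from that of Vom2r57. Rat 10 had a sum of 4710 CPM, rank 4, and Vom2r57 at 0.0465 CPM, and rats 16 and 17 had sums of 1416 and 1200 CPM and 0 counts. The libraries of rats 16 and 17 are those named above for low totals and few genes with low counts. Their 0 counts therefore say little about a gene at a low level. Rats 9 and 4, ranks 5 and 6 for Vom2r57, had sums of 626 and 567 CPM, ranks 10 and 11. By Tnp1 alone they were also ranks 5 and 6, at 55.0 and 29.0 CPM. Rat 16, rank 7 for Tnp1 at 11.4 CPM, had 0 counts of Vom2r57, and rat 10 was rank 8 for Tnp1 at 8.16 CPM. The 5 epididymis and vas deferens genes were lowest in rat 14, at 2738 CPM, and ranked 13 of 15 in rat 7, at 7904 CPM. The 3 leukocyte markers ranged from 9.03 to 93.6 CPM over the sperm libraries. The part of the cell makeup in the level of Vom2r57 was not tested.

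**Figure D4:**
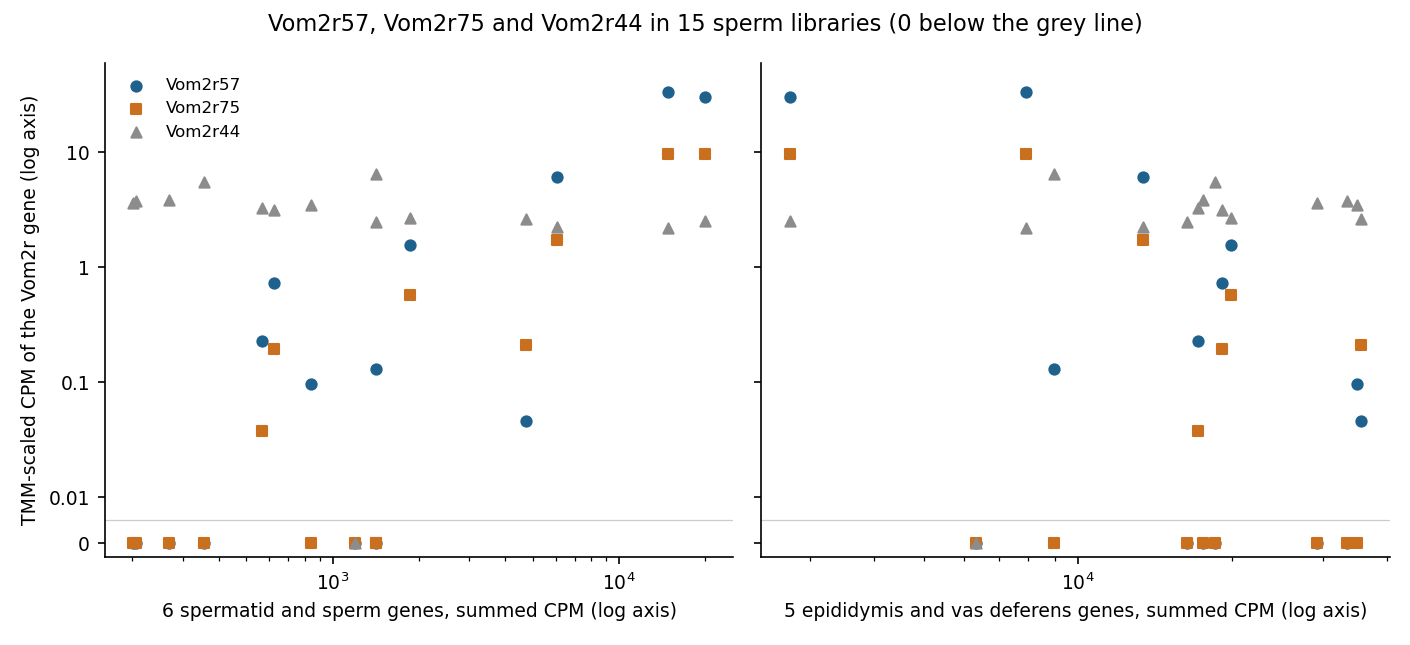
Vom2r57, Vom2r75 and Vom2r44 (TMM-scaled CPM, log axis, 0 below the grey line) in 15 sperm libraries, against the summed CPM of 6 spermatid and sperm genes (left) and of 5 epididymis and vas deferens genes (right), on log axes. Vom2r57 and Vom2r75 are highest in the libraries with the largest spermatid sums, 14849 and 19906 CPM, and Vom2r44 stays between 2.21 and 6.49 CPM in all libraries but the 1 with 0.

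Vom2r57 lies on chromosome 7 from 18090012 to 18104780 and overlaps the pseudogene Vom2r-ps87 by 906 bases. That pseudogene has no row in the count tables, as is so for each of the 87 Vom2r pseudogenes and all 8687 entries annotated plainly as pseudogene. The nearest counted genes are Vom2r56, 72536 bases before it, and LOC134479845, 61430 bases beyond it. LOC134479845 averaged 8.60 CPM in sperm, 0.577 in ovary and 2.67 in female brain. Across sperm libraries its r with Vom2r57 was 0.963 (rho 0.873, adjusted permutation p of 0.000135 for r), and 0.914 without the 2 farthest libraries. Vom2r75 lies from 84553 to 114196 of chromosome 18, with the transcribed pseudogene Brcc3-ps7 21943 bases beyond it as its nearest counted gene. Its r with Vom2r75 was 0.951 (rho 0.633, adjusted permutation p of 0.00072 for r), and 0.798 without the 2 farthest libraries. The rank of these sperm values of r among all other genes was not computed. The part of spermatid RNA in them was not tested, so they are not specific to neighbours. Brcc3-ps7 averaged 7.29 CPM in sperm and 12.2 CPM in female brain, so its order of tissues was not that of Vom2r75.

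Vom2r44 was the member found in all 4 groups. It was 5.88 CPM in the lowest female brain, 8.41 at the median and 9.56 in the highest, and 5.47, 8.54 and 14.4 CPM in male brain. In ovary the lowest, median and highest values were 1.29, 2.31 and 3.46 CPM, and in sperm 0, 3.14 and 6.49 CPM. Ovary lay wholly below both brain groups, sperm overlapped with ovary, and the highest sperm libraries overlapped with the lowest brains. The only library with 0 counts was the sperm of rat 17, the smallest by total.

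Gmps, which encodes guanosine monophosphate synthetase, ends 1561 bases before Vom2r44 on chromosome 2. Gmps spans 150587824 to 150641564 on the plus strand and Vom2r44 150643126 to 150685691, with no overlap. The tables used here do not give the strand of Vom2r44. Brain was the highest tissue for Vom2r44 and the lowest for Gmps, and the mean was higher in sperm than in ovary for both. Gmps was 82.7 to 213 CPM in sperm, 49.99 to 67.3 CPM in ovary and 28.7 to 48.5 CPM in brain over both sexes. Vom2r44 counts were a median of 20.5% of Gmps counts in female brain and 21.8% in male brain, 3.92% in ovary and 2.92% in sperm. Across libraries of 1 tissue r was -0.196 in ovary and 0.141 in sperm (adjusted permutation p of 0.613 for both). Without the 2 libraries farthest from the median of Gmps it was -0.214 and 0.549, and on plain totals with all libraries both changed sign, to 0.142 and -0.037.

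**Figure D5:**
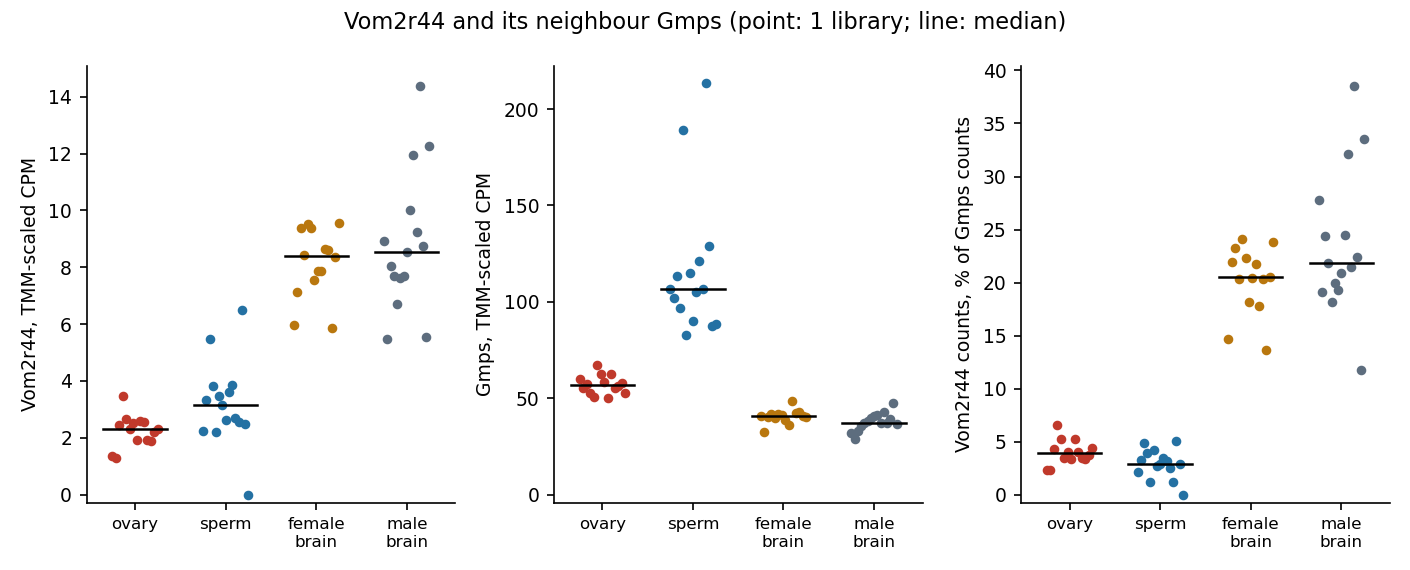
Vom2r44 level (left), level of its neighbour Gmps (middle), both in TMM-scaled CPM, and Vom2r44 counts as a percent of Gmps counts (right) in each rat library (point, 1 library; line, group median). Vom2r44 is highest in brain and Gmps in sperm, and the percent has medians of 20.5 and 21.8 in brain against 3.92 in ovary and 2.92 in sperm.

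Vom2r66 was a brain member. It was 1.19 CPM in the lowest female brain, 1.94 at the median and 2.60 in the highest, and 1.16, 2.11 and 3.17 CPM in male brain, so every brain of both sexes passed 1 CPM. In ovary it was 0.0460 to 0.295 CPM and in sperm 0 to 0.510 CPM, below every brain library. It lies on chromosome 14 from 160432 to 202648, between Crlf2 36799 bases before it and Zfp950l7 27701 bases beyond it, and the pseudogene Vom2r-ps123 is nearer, at 14649 bases. Zfp950l7, a zinc finger gene, was also highest in brain, at 11.1 CPM in females against 4.47 in ovary and 3.89 in sperm, while Crlf2, a cytokine receptor gene, was lowest there, at 9.92 CPM against 36.0 and 59.8.

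Vom2r80 stayed below 1 CPM but passed the low-count filter. Its means were 0.546 ± 0.256 CPM (SD, n = 14) in female brain, 0.567 ± 0.304 (SD, n = 15) in male brain, 0.165 ± 0.111 (SD, n = 14) in ovary and 0.0267 ± 0.0513 (SD, n = 15) in sperm. All 13481 bases of it lie inside the zinc finger gene Zfp40, which is on the opposite strand. Zfp40 averaged 22.6 CPM in female brain, 15.2 in ovary and 0.832 in sperm, the same order of tissues. Vom2r80 counts were a median of 2.29% of Zfp40 counts in female brain, 2.33% in male brain and 0.881% in ovary. The strand setting of the authors' counting is not given, so reads of these genes cannot be told apart.

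Overlap with another gene was the exception in the family. Of the 78 genes, 13 overlapped another annotated gene, 8 a gene with a row in the tables and 6 a pseudogene. The nearest gene was an uncounted pseudogene on at least 1 side for 63 members and another Vom2r symbol for 44. A neighbour within 5000 bases was found for 15. Among the 7 members that reached 1 CPM, only Vom2r57 overlapped an annotated gene.

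In the fit of ovary against female brain 6 members passed the low-count filter, and all 6 were called, where 56.9% of all tested genes were called. A call needed an edgeR adjusted p under 0.05 together with a change of 1 or more in either direction on the log2 scale. Nothing is read from that count, since the contrast chose the family and the filter passed members by their higher group. Vom2r53, Vom2r6 and Vom2r4 were higher in ovary, and Vom2r44, Vom2r66 and Vom2r80 lower. The fitted log2 fold changes of the lower genes were -1.85 ± 0.12, -3.81 ± 0.21 and -1.62 ± 0.27 (SE). The other 72 members were not tested there. Without the filter 24 of 51 tested members were called, beside 55.6% of all genes, and DESeq2 called 15 of 51, beside 49.7%.

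Sperm was set against male brain to ask which members differ between the male samples. With the low-count filter 3 members were tested and all 3 were lower in sperm, where 59.1% of 20480 tested genes were called, 27.7% higher and 31.5% lower. Nothing is read from that count, since Vom2r66 and Vom2r80 passed the filter through male brain, where they are high, and Vom2r57 and Vom2r75, the highest members in some sperm libraries, did not pass. Vom2r66 fell by 3.49 ± 0.42 on the log2 scale (SE, edgeR adjusted p 8.29e-09). Vom2r80 fell by 4.18 ± 0.61 (edgeR adjusted p 3.57e-07). Vom2r44 fell by 1.36 ± 0.31 (edgeR adjusted p 0.000248). The p-values of Vom2r66 and Vom2r80 are conditional on a filter that they passed through the higher group. The fit without the filter gave log2 fold changes of -3.57 ± 0.46 for Vom2r66 and -4.22 ± 0.74 for Vom2r80 (SE). Their edgeR adjusted p were 3.95e-08 and 8.89e-06 there, so the direction did not rest on the filter. Without rats 16 and 17, Vom2r80 no longer passed the filter.

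Vom2r57 and Vom2r75 did not pass that filter, because most sperm libraries held few or no counts. Without the filter they were called higher in sperm, with log2 fold changes of 8.501 ± 1.47 (SE, edgeR adjusted p 7.76e-06) and 8.87 ± 1.46 (edgeR adjusted p 3.64e-06). The counts rested on a few libraries, as given above. That fit tested 57 members and called 27, 18 higher and 9 lower, and it called 62.2% of all genes, 36.6% higher and 25.6% lower. DESeq2 called 12 of 57, 5 higher and 7 lower, beside 51.8% of all genes.

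No member was called between female and male brain. Of 3 members tested, 0 were called by edgeR, where 0.0583% of 20570 genes were, and 0 had an unadjusted p below 0.05. Without the filter 0 of 38 were called by edgeR and 0 by DESeq2, beside 0.0569% and 0.111% of all genes, with 4 and 1 members at an unadjusted p below 0.05. The log2 difference of female minus male was -0.13 for Vom2r44 (95% interval -0.35 to 0.10, edgeR adjusted p 0.762). It was -0.09 for Vom2r66 (-0.34 to 0.17, edgeR adjusted p 0.869) and -0.19 for Vom2r80 (-0.64 to 0.27, edgeR adjusted p 0.838). These intervals leave room for differences of up to 0.64 on that scale.

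Of 16 listed genes of vomeronasal signalling and receptor transport, 10 were tested, and most of these were lower in the reproductive samples than in brain. By edgeR 2 were higher and 7 lower in ovary than in female brain, where 27.7% of all genes were higher and 29.2% lower. In sperm against male brain 2 were higher and 7 lower, beside 27.7% and 31.5%. The medians of their log2 fold changes were -2.94 and -4.01, beside 0.02 and -0.03 over all genes tested. The 3 brain neuron markers moved the same way, all lower in both, with medians of -9.78 and -8.54, and the part of general neuronal content in the list was not tested. Between the sexes 0 of 10 were called, with a median of -0.05. Trpc2 and Omp were among the listed genes not tested, and their low means were higher in ovary than in female brain. They were 0.0862 and 0.507 CPM in ovary, and 0.0287 and 0.0577 CPM in female brain. Gnao1, the G protein subunit of V2R neurons, averaged 588 CPM in female brain, 9.13 in ovary and 14.9 in sperm. Ano1 and B2m were the genes called higher in both reproductive samples. Gnai2 was also higher in both, with log2 fold changes of 0.90 and 0.86, short of the 1 needed for a call. Ano1, a calcium-activated chloride channel, averaged 205 CPM in ovary, 426 in sperm and 2.41 in female brain. B2m, the light chain of class I molecules, averaged 1297, 1610 and 257 CPM.

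The 6 listed markers of vomeronasal and olfactory sensory neurons summed to 3.28 to 8.13 CPM in ovary, 0 to 10.2 CPM in sperm and 114 to 166 CPM in female brain. The G protein subunits Gnal and Gng13 made up most of the brain sum, with means of 88.5 and 40.8 CPM there. Gng8, another such subunit, averaged 6.70 CPM in female brain, 3.16 in ovary and 0.325 in sperm. The markers Trpc2, Omp and Cnga2 were near 0 in most libraries. Trpc2 was at most 0.248 CPM in any ovary, 0.0465 in any sperm library and 0.0941 in any brain. Omp, the olfactory marker protein, averaged 0.507 CPM in ovary, 0.127 in sperm, 0.0577 in female brain and 0.131 in male brain, and 1 ovary reached 4.23 CPM. RT1-M10-1, of the class I family found with V2Rs, had 0 counts in all groups. Calr4, a calreticulin described as an aid to V2R transport, averaged 5.08 CPM in female brain, 0.347 in ovary and 0.345 in sperm.

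Other chemoreceptor families were also rarely counted. Of 106 Vom1r genes, which encode the type 1 vomeronasal receptors, 0 reached a mean of 1 CPM in any group. Of 17 Taar genes Taar8b did in sperm, of 35 Tas2r genes Tas2r137 did in all 4 groups, and of 6 Fpr genes Fpr2 and Fpr3 did in sperm. Of the 5 family C relatives, Casr, the calcium-sensing receptor, averaged 1.47 CPM in female brain, 0.233 in sperm and 0.0099 in ovary. By edgeR 1 of 2 tested relatives was lower in ovary, beside 29.2% of all genes, and 1 of 3 lower in sperm, beside 31.5%, in each case Casr. Tas1r1, a taste receptor subunit, averaged 2.52 CPM in ovary, 4.91 in sperm and 3.03 in female brain, with no call in any comparison.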

How the data were processed

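Each rat table held raw counts per gene and library as deposited by the authors, not normalized and not pooled over replicates. Per the series' text, reads of 150 bases from stranded mRNA libraries were trimmed with Trimmomatic 0.39, aligned with STAR 2.7.5a to GRCr8 and counted with Rsubread 2.20.0 in R 4.4.2. Neither the strand setting nor how reads with several matches were handled is given in the sources used here. Of 38675 genes, 38593 matched the GRCr8 annotation of RefSeq by identifier or symbol. The sheep tables were not used.

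All genes were tested on these counts with R 4.3.3 and edgeR 4.0.16 (quasi-likelihood test, TMM factors, filterByExpr, Benjamini-Hochberg adjustment over all genes tested, a prior count of 0.125). Each fit held only its own groups, and a call needed an adjusted p under 0.05 with a log2 change of 1 or more in size. SEs were computed back from the test. The fit was tested on simulated data. DESeq2 1.42.0, other scaling, no filter, left-out libraries and rat number as a block were the alternatives. No separate cultures or extractions are named beyond the rat numbers, so p-values measure the spread between rats and their libraries. No pair of libraries in a group agreed within sampling noise.

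Rat numbers in the labels pair brain with ovary or sperm. Deviations of same-numbered libraries had a median correlation of 0.010 (ovary and brain) and 0.074 (sperm and brain). Named are Vom2r4, Vom2r6, each member at a mean of 1 CPM in a group, the 3 members on either side of 1 CPM in ovary, members called in sperm or between the sexes, and their neighbours and overlapping genes. Copies at the start are named by promoter identity. Members and lists were chosen with earlier results of these data known. Protein identity between members, part of the plan, was not analysed here, and identity of promoter windows by edit distance took its place. Correlations used 100000 permutations, and a ratio to a neighbour needed 40 counts of both genes together in the library. Floors of 3 counts cover counting error only, since reads without molecular identifiers are not independent molecules. The intervals of the log2 differences between female and male brain were computed from the SEs of the edgeR test. Like its p-values, they take in the spread between rats and their libraries.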

Additional observations from a re-analysis of the deposited data

How the results depend on the processing

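The number of members at a mean of 1 CPM depended on the threshold and on the summary. At 2 CPM it was 2 in ovary and 1 in female brain, and by the median over libraries it was 1 in sperm. By that median Vom2r4 was also below 1 CPM in ovary, at 0.890 CPM. Leaving out 1 library at a time gave 3 to 4 members in ovary, where Vom2r4 dropped below the threshold without rat 23 or rat 25. It gave 2 to 3 in sperm, where Vom2r75 dropped to 0.884 CPM without rat 14 and to 0.888 CPM without rat 7. With RLE factors Vom2r4 also dropped below 1 CPM in ovary, which left 3. The choice of filter and tool moved the calls. Of ovary against female brain 24 members were called without the low-count filter and 15 by DESeq2, and of sperm against male brain 27 and 12, since 51 and 57 members were then tested. With the replicate block, which fits rat number, 6 and 3 members were called, the same genes as without it, and it changed no other call.

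The log2 fold changes of tested members kept their direction and their side of the threshold under every alternative in which they were tested. In sperm against male brain those of Vom2r44 ran from -1.67 to -1.26, of Vom2r66 from -3.96 to -3.40 and of Vom2r80 from -5.00 to -4.07. RLE factors moved the median of all genes there to -0.28, and relative to it Vom2r44 was at -1.39. The replicate block moved that median to -0.36, and relative to it Vom2r44 was at -1.07. The alternatives without brain libraries 1 and 4, the left-out single libraries, the means without sperm libraries 7 and 14 and the relations on plain totals were chosen after seeing the data. Depth limits the members below 0.05 CPM, whose counts are too few to compare tissues.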
